A study of Homo sapiens with 6 samples.

Results

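The Notch pathway together with NUMB, its intracellular antagonist, was followed as 41 genes among the 58174 genes of an mRNA-seq table of KNS42 cells. The members were picked by gene symbol: the NUMB proteins, the Notch receptors and ligands, the glycosyltransferases that modify the receptors, gamma-secretase subunits, RBPJ with its MAML co-factors, the HES, HEY and NRARP target genes, the Deltex proteins with ITCH, and SPEN. All 41 were found in the table, and 29846 of its genes were above 0 in at least 1 library.

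KNS42 is an established cell line from a pediatric glioblastoma. The cells were transfected with a control siRNA (siC, n = 3) or with a pool of siRNAs directed at MSI1 (siMSI1, n = 3), and RNA was collected after 72 h. Both groups therefore share the cell line, the serum-containing medium and the transfection, and each group stands for 1 siRNA treatment at 1 time point of an adherent line. Nothing in the labels says that the 3 libraries of a group came from separate cultures, so the p-values below measure the spread between these libraries, which may be technical.

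Notch receptors are cleaved after a neighbouring cell presents a ligand. An ADAM protease cuts first, gamma-secretase then frees the intracellular domain, and this domain joins RBPJ and a MAML protein on DNA to switch on genes such as those of the HES and HEY family. In the developing brain the pathway keeps neural progenitors undifferentiated, and NUMB, an endocytic adaptor, counters it by driving the receptor into degradation. MSI1 (Musashi1) is an RNA-binding protein of neural stem cells for which the NUMB mRNA is a classic target, known mainly for being held back from translation. An mRNA level does not report on translation or on receptor cleavage.

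Gene-mapped reads numbered 15018417, 18024080 and 14448513 in siC (replicates 1, 2 and 3) and 14379126, 13087025 and 14700593 in siMSI1. The unit of all levels is FPKM, the reads of a gene scaled to its length in kilobases and to a library size set by the authors, 0.977 to 1.025 times the reads on genes. For a 2-kb gene, a floor of 3 reads meant 0.0829 to 0.114 FPKM depending on the library. These floors reflect counting error alone. The knockdown was visible in each library: MSI1 (chr12:120341330-120369164, minus strand, GRCh38) measured 63.7, 61.9 and 66.9 FPKM in siC against 12.1, 12.3 and 11.2 in siMSI1. This is 18.5% of the siC mean, with a log2 fold change of -2.43 (SE 0.07, adjusted p = 8.71e-06, limma).

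Of the 5 markers of a glioma line, 4 were abundant and GFAP was low, at 1.33, 1.57 and 1.99 FPKM in siC. VIM, the intermediate filament vimentin, made up most of their sum, and the summed level of NES, VIM, SOX2, CD44 and GFAP was 1517, 1450 and 1507 FPKM in siC against 1210, 1229 and 1314 in siMSI1. GFAP was above every siC library in siMSI1, whereas the other 4 were below, of which CD44 passed the test (log2 fold change -0.46, adjusted p = 0.00303, limma). Defining markers of other cells were at or near 0: AIF1, RBFOX3 and MOG had no read in any library. The 3 endothelial markers (PECAM1, VWF, CDH5) summed to 0.262, 0.232 and 0.134 FPKM in siC against 0.290, 0.312 and 0.442 in siMSI1, where PECAM1 and CDH5 were above every siC library and VWF overlapped between groups. By mean FPKM, VWF was the most abundant of them in siC (20 to 37 reads) and CDH5 in siMSI1 (0.166 against 0.120 for VWF). In siMSI1 replicate 1, VWF was the higher of the pair, at 0.118 FPKM against 0.102. CDH5 had 9, 11 and 22 reads in siMSI1 against 2, 3 and 0 in siC, and VWF had 18, 14 and 21 in siMSI1. Immune markers (PTPRC, CD68, AIF1) summed to 0.183, 0.209 and 0.159 FPKM in siC against 0.248, 0.348 and 0.534 in siMSI1, nearly all of it CD68. The epithelial pair (EPCAM, CDH1) summed to at most 0.202 FPKM, MBP had at most 1 read, and SYT1, a synaptic vesicle protein, measured 3.185 to 4.32 FPKM with overlapping groups.

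Over the whole table, 1655 of the 15069 genes with a mean level of at least 0.5 FPKM passed an adjusted p of 0.01 (limma on log2(FPKM + 0.1), Benjamini-Hochberg over all of them), which is 11% of the genes tested. Of these, 879 were downregulated upon MSI1 knockdown (5.83%) and 776 were upregulated (5.15%). Without siC replicate 1, 2 or 3 or siMSI1 replicate 1 or 2, the total was 517, 842, 800, 814 and 885.

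Of the 41 Notch genes, 32 reached the level needed for the test and 6 passed it, 18.8% of those tested beside 11% of all genes, with no test made over the members as a list. The 4 downregulated members were NOTCH1, the ligand DNER, the DNA-binding factor RBPJ and the fucosyltransferase POFUT1. The 2 upregulated members were LFNG, which extends the sugar that POFUT1 adds, and NUMBL, the paralog of NUMB. The other 26 did not pass, among them NUMB and each tested canonical ligand, gamma-secretase subunit and HES, HEY or NRARP gene. Fewer members were called without siC replicate 1 (2), siC replicate 2 (3), siC replicate 3 (4) or siMSI1 replicate 1 (3). The share of all tested genes was then 3.43%, 5.6%, 5.32% and 5.41%. DNER and POFUT1 were called each time.

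The log2 fold change was below 0 for 20 of the 32 tested members and above 0 for 12, with a median of -0.12 (HES1 and MAML2, both close to 0, change sign when each library is centred on its median), beside a median of 1.5e-05 over all genes tested. All 3 siMSI1 libraries were below all 3 siC libraries for 11 of them and above for 6, whereas the groups overlapped for 15. Over all genes tested, 21.5% had every siMSI1 value below every siC value and 21.4% had it above. An unadjusted p of at most 0.05 (limma) was reached by 18 of the 32 members, beside 5765 of the 15069 genes tested. An exact two-sided permutation test of 3 against 3 libraries cannot give a p below 0.1 for a single gene, so the calls rest on the fit across all genes. In bulk RNA, fewer cells that express a gene and less RNA of it per cell cannot be told apart.

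**Figure D1:**
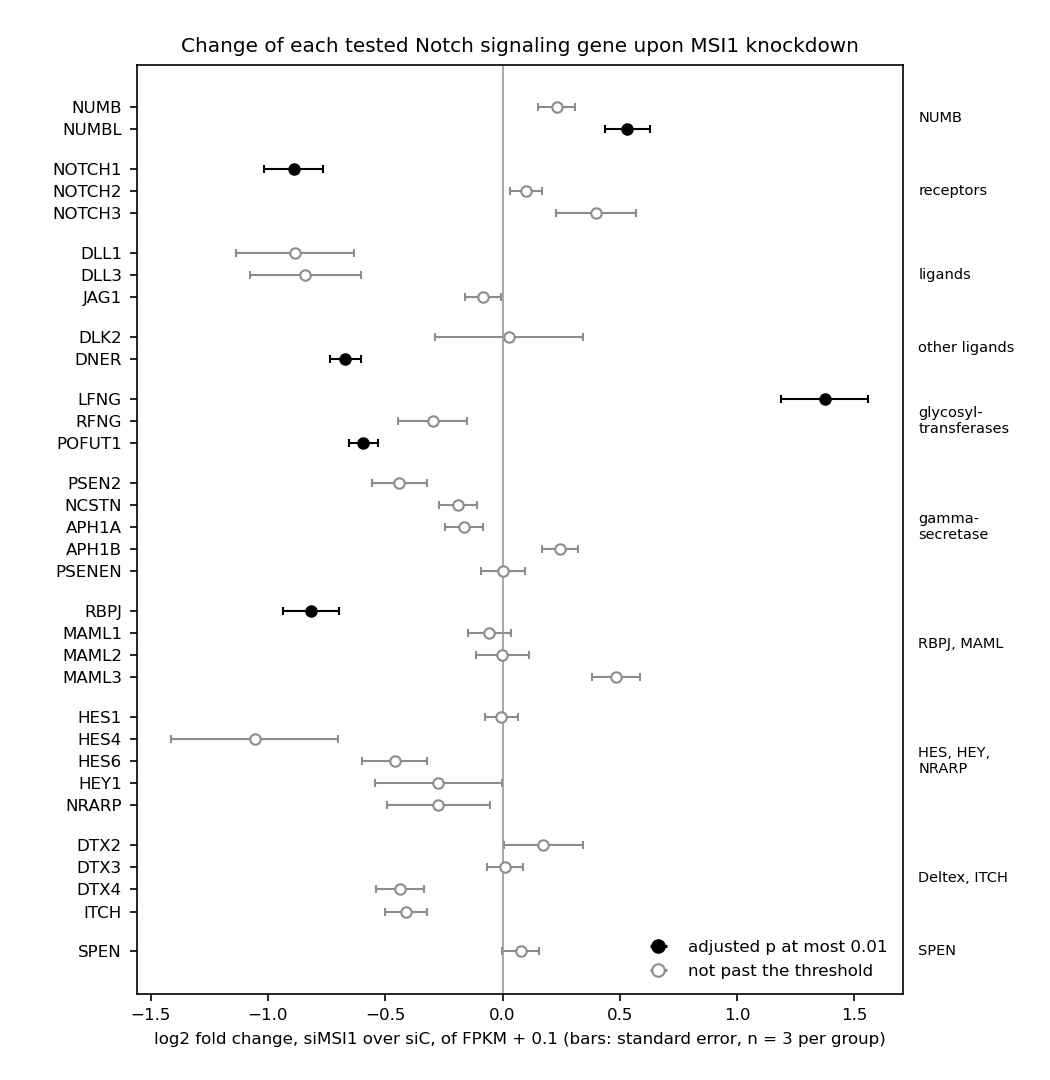
Log2 fold change of siMSI1 over siC (x axis, on log2(FPKM + 0.1)) for the 32 tested Notch genes, grouped by role, with standard errors from limma (n = 3 per group). Filled points are the 6 genes with an adjusted p of at most 0.01: NOTCH1, DNER, RBPJ and POFUT1 lie to the left of 0, LFNG and NUMBL to the right, and HES1 lies on 0.

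Levels differed widely between members. A mean of at least 10 FPKM over the 6 libraries was reached by 8 of them: APH1A at 108 FPKM, HES1 at 53.9, NCSTN at 34.5, DTX3 at 27.1, POFUT1 at 19.7, DNER at 19.2, NUMBL at 17.5 and HES6 at 10.1. Among the other 24 tested members, 21 lay between 1 and 10 FPKM, and DLL1, DLK2 and DLL3 lay below 1. The 9 members that were not tested are low: DLL4, MFNG, HES5, HEYL and DTX1 had 0 to 3 reads in every library, NOTCH4 5 to 17, JAG2 3 to 16, DLK1 8 to 20 and HEY2 5 to 14. NOTCH2 was the most abundant receptor, JAG1 the most abundant canonical ligand and HES1 the most abundant target.

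**Figure D2:**
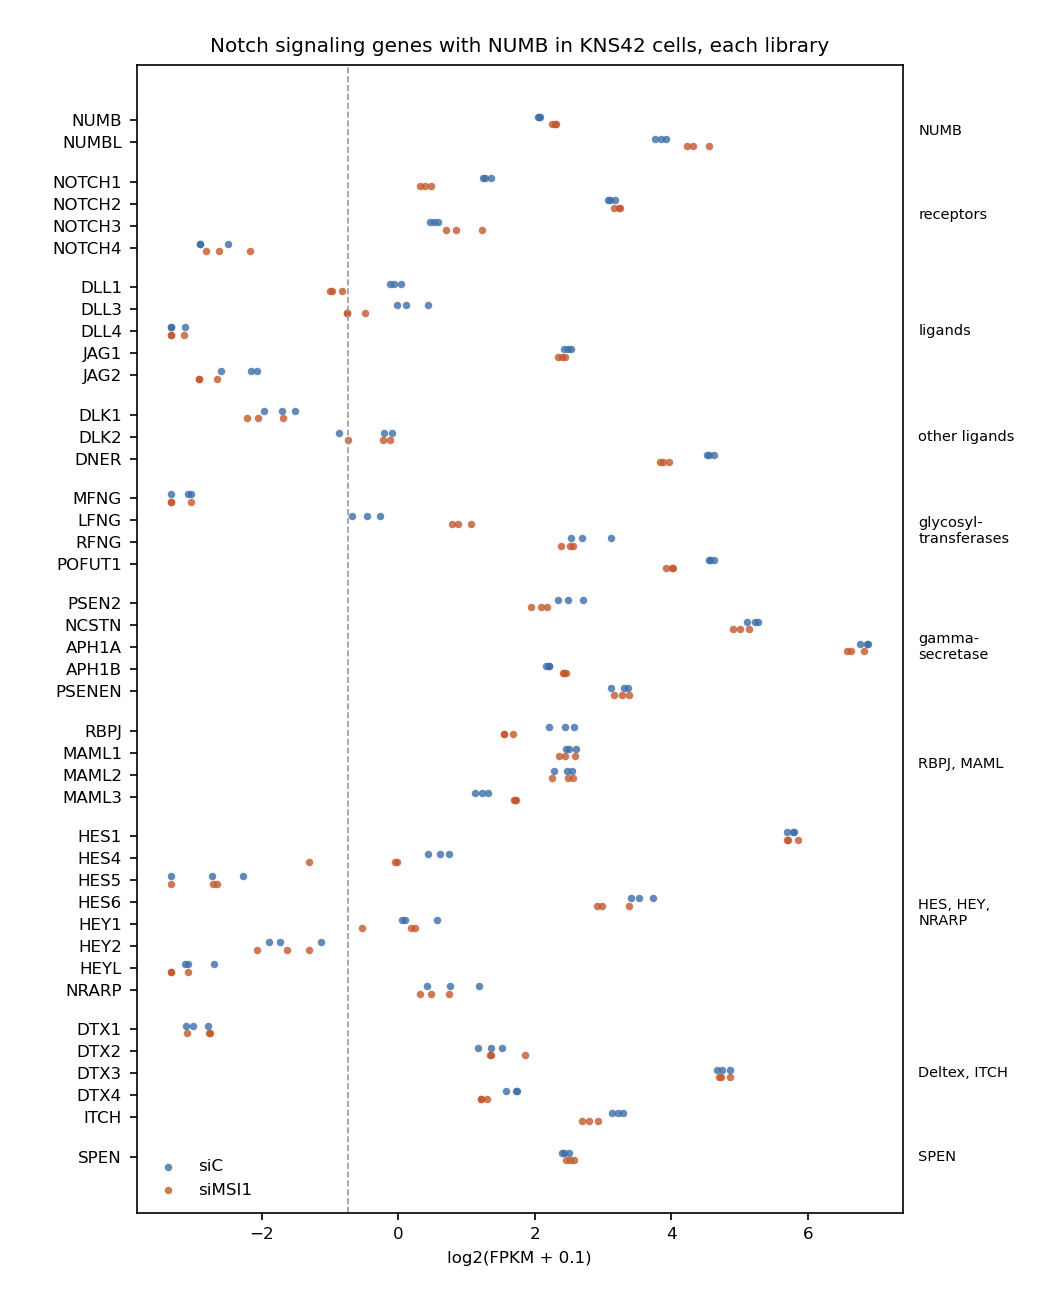
Level of each of the 41 Notch genes in each library (points, siC blue and siMSI1 orange), as log2(FPKM + 0.1) on the x axis. The dashed line is 0.5 FPKM, the mean level needed for the test. LFNG shows the largest shift, and 9 members have their mean left of the line.

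NUMB (chr14:73275107-73458617, minus strand) measured 4.06, 4.14 and 4.02 FPKM in siC against 4.68, 4.88 and 4.82 in siMSI1, from 622 to 805 reads. Each siMSI1 library was above each siC library, and the libraries of a group lay close together. The mean was 4.07 ± 0.06 FPKM (SD, n = 3) in siC and 4.79 ± 0.11 FPKM in siMSI1, or 118% of siC. With a log2 fold change of 0.23 (SE 0.08, adjusted p = 0.0678, limma), NUMB did not pass the threshold.

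NUMBL (chr19:40665905-40690972, minus strand), which shares the phosphotyrosine-binding domain of NUMB and much of its role, was the more abundant of the pair. It measured 14.2, 13.5 and 15.0 FPKM in siC against 19.9, 18.7 and 23.4 in siMSI1. The groups did not overlap, and siMSI1 replicate 3 was the highest. NUMBL was upregulated to 145% of siC (log2 fold change 0.53, SE 0.10, adjusted p = 0.00648, limma). The adjusted p was 0.0298, 0.0244, 0.0166 and 0.0199 without siC replicate 1, 2 or 3 or siMSI1 replicate 1. Per length, NUMBL mRNA exceeded NUMB mRNA 3.51, 3.25 and 3.73 times in siC and 4.26, 3.83 and 4.86 times in siMSI1. These ratios depend on the gene lengths given with the values, 10760 bases for NUMB and 5823 for NUMBL. In reads the pair lay closer: in siC, NUMBL had 1242, 1417 and 1255 and NUMB 654, 805 and 622.

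Because NUMB is the textbook Musashi target, the short words that Musashi proteins are known to bind were looked up in the annotated 3′ ends (GENCODE 44, canonical transcript, sense strand). The words that begin with G were GUAGU as the shortest form, then GUUAGU with an added U, and then GUUUAGU with a further U. Those that begin with A were AUAGU as the shortest form, then AUUAGU and then, as the longest, AUUUAGU. None of them contains another. NUMB holds 4 of them in 1362 bases of its 3′UTR, shown here with 10 bases on each side and the word in capitals, each on the minus strand of GRCh38.
NUMB site at chr14:73276486-73276491: uugucuccugAUUAGUacucuuuuca
NUMB site at chr14:73276172-73276176: ccuccugucaGUAGUggccuguauu
NUMB site at chr14:73275953-73275957: aauauuuuaaAUAGUucucagauau
NUMB site at chr14:73275719-73275723: ucacuagguuGUAGUuuuuuuuaaa

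At least 1 such word was present in 71.3% of the 3′UTRs of tested genes (8037 of 11272) and in 21 of the 32 tested members (65.6%), so these letters are common. NUMB has 2.94 per kb, against a median of 1.57 per kb over tested genes. Several members are denser than NUMB: HEY1 (5.09 per kb), JAG1 (4.96), PSENEN (4.46), PSEN2 (3.85), RBPJ (3.83) and DNER (3.29). Of these, only RBPJ and DNER passed the test, and all other members are less dense than NUMB. NUMBL has none in 1563 bases. Of the other members that passed the test, RBPJ has 15 in 3916 bases, NOTCH1, DNER and POFUT1 have 3 each and LFNG has none. A match is a string of letters, not a bound site, and carries no information on what MSI1 did there.

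NOTCH1 (chr9:136494433-136546048, minus strand) was the receptor that passed the test. Its level was 2.30, 2.27 and 2.47 FPKM in siC against 1.30, 1.15 and 1.21 in siMSI1, from 149 to 405 reads. The groups were far apart relative to their spread, and the siMSI1 mean was 52.0% of siC (log2 fold change -0.89, SE 0.12, adjusted p = 0.00241, limma). The fold change stayed between -0.85 and -0.91 without siC replicate 1, 2 or 3, but the adjusted p was then 0.0157, 0.0106 and 0.0129, just above 0.01.

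NOTCH2 (chr1:119911553-120100779, minus strand), the most abundant receptor, measured 8.90, 8.30 and 8.48 FPKM in siC against 9.30, 8.87 and 9.36 in siMSI1, and the groups overlapped. Its log2 fold change was 0.10 (SE 0.07, adjusted p = 0.334, limma). Reads could be shared with the partial copy NOTCH2NL, which had 38 to 77 reads per library against 1955 to 2525 for NOTCH2. NOTCH3 was at 1.34 ± 0.06 FPKM in siC and 1.82 ± 0.38 FPKM in siMSI1 (log2 fold change 0.40, adjusted p = 0.125), where siMSI1 replicate 3 was the highest. Without that library, the NOTCH3 log2 fold change was 0.245 (adjusted p = 0.299, limma). NOTCH4 was too low for the test, at 0.0489 ± 0.026 and 0.0753 ± 0.041 FPKM.

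**Figure D3:**
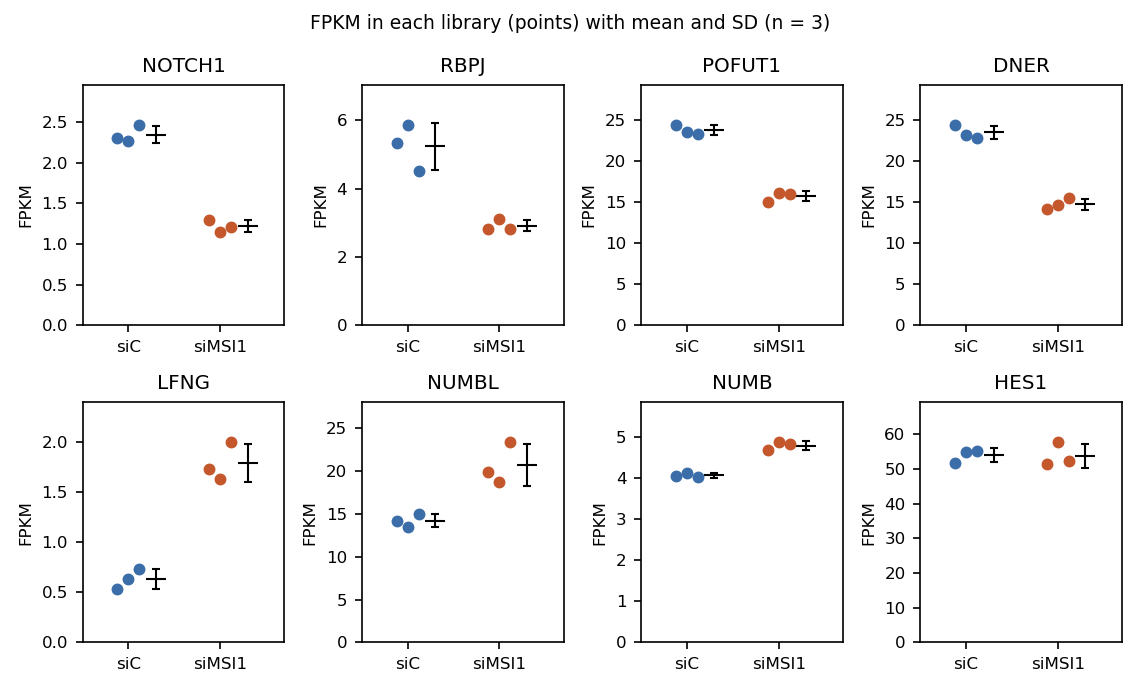
FPKM in each library (points) with the mean and SD (bars, n = 3) for the 6 called Notch genes and for NUMB and HES1, each on its own axis from 0. NOTCH1, RBPJ, POFUT1 and DNER are lower in every siMSI1 library, LFNG and NUMBL higher, NUMB slightly higher with no overlap, and HES1 overlaps.

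Ligands fall into canonical ones, which carry the DSL domain that engages the receptor, and others. JAG1 (chr20:10637684-10673999, minus strand) was the most abundant canonical ligand, at 5.49, 5.65 and 5.30 FPKM in siC against 5.36, 4.97 and 5.18 in siMSI1. Its groups overlapped, and its log2 fold change was -0.08 (SE 0.08, adjusted p = 0.479, limma). The Delta genes were far lower. DLL1 was at 0.869 ± 0.057 FPKM in siC and 0.425 ± 0.033 FPKM in siMSI1 (log2 fold change -0.88, SE 0.25, adjusted p = 0.0368), from 17 to 50 reads per library. DLL3, which in contrast to DLL1 is known to act inside the cell that makes it, was at 1.04 ± 0.19 and 0.533 ± 0.068 FPKM (log2 fold change -0.84, SE 0.24, adjusted p = 0.0359), from 17 to 49 reads. In both, the siMSI1 mean was 48.9% and 51.3% of siC and no siMSI1 library reached a siC library, yet neither passed the threshold of 0.01. Of the DLL1 exons, 9.69% are shared with FAM120B on the opposite strand, which was at 3.50 and 3.26 FPKM. JAG2 and DLL4 were not tested, and JAG2 had 12, 16 and 6 reads in siC and 3, 5 and 3 reads in siMSI1.

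DNER (chr2:229357629-229714555, minus strand), a transmembrane protein with EGF repeats that is described as a Notch ligand of neurons and glia, was downregulated. It measured 24.5, 23.2 and 22.9 FPKM in siC against 14.2, 14.7 and 15.5 in siMSI1. The gap between the groups was many times the spread within them, and the siMSI1 mean was 62.7% of siC (log2 fold change -0.67, SE 0.07, adjusted p = 0.000614, limma). DNER passed in each of the 16 alternatives at the same threshold, with log2 fold changes of -0.70 to -0.64. Of the Delta-like proteins without a DSL domain, DLK2 was at 0.684 ± 0.208 and 0.692 ± 0.17 FPKM, and DLK1 at 0.205 ± 0.047 and 0.155 ± 0.049 FPKM was too low for the test.

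The sugars on the EGF repeats of a receptor set which ligands it can bind. POFUT1 (chr20:32207855-32238658, plus strand) adds the first fucose, and was the most abundant of the 4 glycosyltransferases. Its level was 24.5, 23.5 and 23.3 FPKM in siC against 15.1, 16.2 and 15.95 in siMSI1. No library of one group came near the other, and the siMSI1 mean was 66.1% of siC (log2 fold change -0.59, SE 0.06, adjusted p = 0.000801, limma). As for DNER, all 16 alternatives at the same threshold called it, with log2 fold changes of -0.61 to -0.56.

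LFNG (chr7:2512529-2529177, plus strand), a Fringe that lengthens this fucose with N-acetylglucosamine and thereby favours Delta over Jagged ligands, went the other way. It stood at 0.527, 0.631 and 0.732 FPKM in siC, from 27 to 39 reads, and at 1.73, 1.63 and 1.997 FPKM in siMSI1, from 73 to 98 reads. These are low counts, but the lowest siMSI1 library was far above the highest siC library. LFNG was upregulated to 283% of siC (log2 fold change 1.37, SE 0.19, adjusted p = 0.00211, limma), the largest change of any tested member in either direction. The adjusted p was 0.0101 without siC replicate 1 and 0.0110 without siMSI1 replicate 1. Among the other Fringe genes, RFNG was at 6.87 ± 1.5 and 5.50 ± 0.36 FPKM (log2 fold change -0.30, adjusted p = 0.183), and MFNG had at most 1 read per library. Without siC replicate 3, the RFNG log2 fold change was -0.13 (adjusted p = 0.427, limma). Since 21.6% of the RFNG exons lie opposite exons of GPS1, at 19.4 and 17.8 FPKM, and it is not stated whether the counting used strand, the RFNG level is uncertain.

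Gamma-secretase, the protease that frees the intracellular domain, is built from a presenilin, nicastrin (NCSTN), an APH1 protein and PSENEN, and none of its 5 members listed here passed the test. APH1A (chr1:150265399-150269580, minus strand) had the highest level of all Notch genes, at 116, 109 and 118 FPKM in siC against 94.8, 98.6 and 113 in siMSI1. The groups overlapped, since siMSI1 replicate 3 was at the level of the control, and the log2 fold change was -0.16 (SE 0.08, adjusted p = 0.184, limma). PSEN2, a catalytic subunit, was at 5.63 ± 0.72 and 4.11 ± 0.36 FPKM without overlap (log2 fold change -0.44, adjusted p = 0.0301). APH1B, the paralog of APH1A, was at 4.46 ± 0.09 and 5.31 ± 0.10 FPKM without overlap (log2 fold change 0.25, adjusted p = 0.0511). NCSTN was at 36.8 ± 2.3 and 32.3 ± 2.6 FPKM (adjusted p = 0.130), and PSENEN at 9.55 ± 0.85 and 9.56 ± 0.71 FPKM.

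RBPJ (chr4:26163455-26435131, plus strand), the factor through which all 4 receptors reach DNA, was downregulated. Its level was 5.34, 5.87 and 4.50 FPKM in siC against 2.82, 3.11 and 2.81 in siMSI1, from 374 to 983 reads. The siC libraries scattered more than the siMSI1 libraries, but the groups did not overlap, and the siMSI1 mean was 55.7% of siC (log2 fold change -0.82, SE 0.12, adjusted p = 0.00272, limma). Without siC replicate 1 or 2 or siMSI1 replicate 1 the adjusted p was 0.0167, 0.01002 and 0.0125, and it did not pass. The 4 processed pseudogenes of RBPJ in the table had at most 1 read in any library. The MAML co-activators did not follow. MAML1 (chr5:179732822-179777283, plus strand) measured 5.98, 5.57 and 5.38 FPKM in siC against 5.36, 5.03 and 5.89 in siMSI1, with overlapping groups and a log2 fold change of -0.06 (SE 0.09, adjusted p = 0.690, limma). MAML2 was at 5.32 ± 0.49 and 5.32 ± 0.57 FPKM. MAML3 was at 2.23 ± 0.15 and 3.16 ± 0.04 FPKM (log2 fold change 0.48, SE 0.10, adjusted p = 0.0126), with the siMSI1 libraries all above the siC libraries, and stayed short of the threshold.

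**Figure D4:**
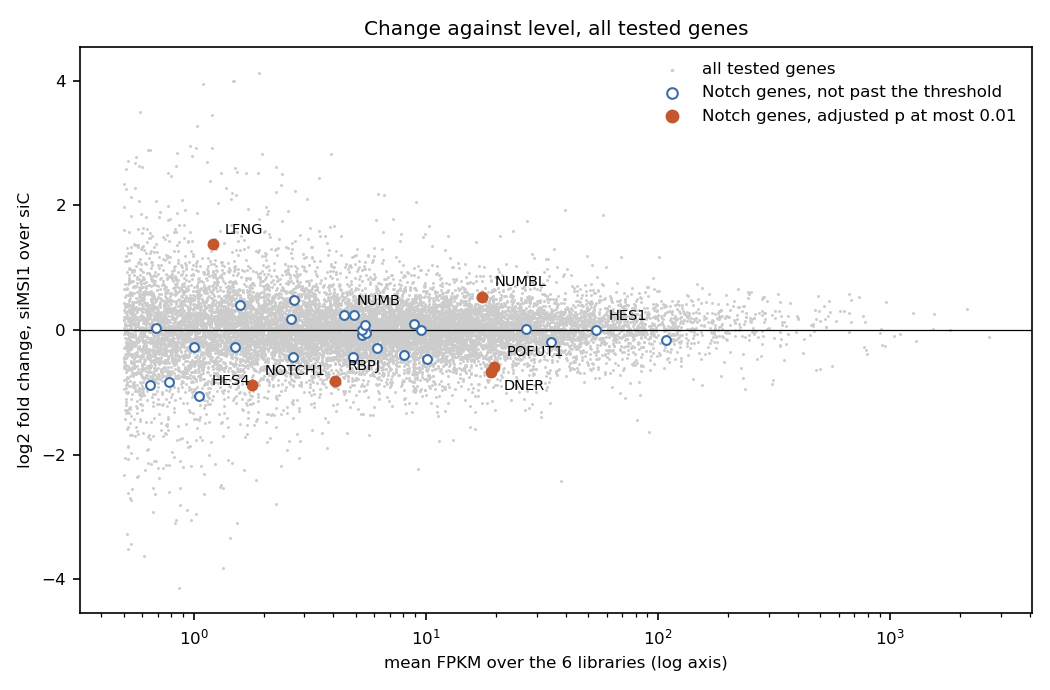
Log2 fold change (y axis) against mean FPKM (x axis, log scale) for all 15069 tested genes (grey) and the 32 tested Notch genes (blue open circles, or filled orange if called). DNER and POFUT1 lie almost on top of each other, LFNG is the highest Notch gene and HES4, at a low level, the lowest.

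The genes that the receptor switches on were then examined. Promoters of classic targets carry the RBPJ recognition letters TGGGAA, which read TTCCCA on the other strand, and both were looked up from 250 bases before to 50 bases after the start (RefSeq, GRCh38.p14). At least 1 promoter was given for 32 of the 41 members. The 60 bases from 110 to 51 bases before the start are printed here for 4 target genes because they place the letters in the same stretch whether or not the gene was expressed in KNS42 cells. Since the genes were picked for this, their shared stretch is not a result. Capitals mark TGGGAA, and all are read in the direction of transcription.
HES1, chr3:194136038-194136097, plus strand: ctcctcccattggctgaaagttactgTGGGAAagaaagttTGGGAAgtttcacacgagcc
HES4, chr1:1000148-1000207, minus strand: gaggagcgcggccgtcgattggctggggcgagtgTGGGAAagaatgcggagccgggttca
HES5, chr1:2530314-2530373, minus strand: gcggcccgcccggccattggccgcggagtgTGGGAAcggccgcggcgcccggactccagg
HEYL, chr1:39639694-39639753, minus strand: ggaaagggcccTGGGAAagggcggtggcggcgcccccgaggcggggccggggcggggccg

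The letters begin 84 and 70 bases before the start in HES1, 76 in HES4, 80 in HES5 and 99 in HEYL. In HEY2, TGGGAA begins 3 bases before the start, outside that stretch. In a promoter of RBPJ, which is not in the target group, it begins 72 bases before the start, inside that stretch. No promoter was given for HEY1, which left 7 HES, HEY and NRARP genes. Counted per gene, with some genes having several promoters, the letters lay on either strand in at least 1 promoter of 5 of these 7 (71.4%). They were found so for 10 of the 32 members (31.2%) and 7673 of all 27305 genes (28.1%). As TGGGAA alone, they were found for 28.1% of the members and 15.7% of all genes. HES6 and NRARP do not hold them in this window, which says nothing of sites elsewhere.

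HES1 (chr3:194136148-194138732, plus strand), the repressor through which Notch holds back proneural genes, measured 51.8, 54.98 and 55.2 FPKM in siC against 51.5, 57.8 and 52.2 in siMSI1. The libraries of both groups were interleaved. Its log2 fold change was -0.0058 (SE 0.07, adjusted p = 0.962, limma), from 1546 to 2051 reads per library. This SE is close to those of DNER and POFUT1, so a difference of their size would have been seen at this depth, and none was detectable for HES1.

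HES4 measured 1.25, 1.58 and 1.43 FPKM in siC against 0.303, 0.887 and 0.872 in siMSI1. All siMSI1 libraries were below the siC libraries, but with 5, 13 and 14 reads in siMSI1 against 21, 32 and 23 in siC the fold change was poorly determined (log2 fold change -1.06, SE 0.36, adjusted p = 0.0647, limma). Without siMSI1 replicate 1 the log2 fold change was -0.63. HES6, known as an inhibitor of HES1 and a promoter of neuronal differentiation, measured 11.4, 10.5 and 13.2 FPKM in siC against 7.43, 7.83 and 10.3 in siMSI1. The groups nearly met, since siMSI1 replicate 3 was just below the lowest siC library, and HES6 did not pass (log2 fold change -0.46, adjusted p = 0.0465). Without siMSI1 replicate 3 it passed, with an adjusted p of 0.00757. HEY1 was at 1.10 ± 0.25 and 0.905 ± 0.274 FPKM (adjusted p = 0.505). NRARP, a feedback inhibitor of the receptor complex, was at 1.67 ± 0.46 and 1.34 ± 0.22 FPKM (adjusted p = 0.404). The groups of HEY1 and NRARP overlapped. None of the 5 tested target genes was called. HES5, the other main effector in neural progenitors, was listed with 0 to 2 reads, HEYL with 0 to 3 and HEY2 with 5 to 14.

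Among the ubiquitin ligases, DTX3 (chr12:57604622-57609804, plus strand) was the most abundant Deltex, at 26.7, 25.3 and 28.9 FPKM in siC against 25.9, 26.5 and 29.0 in siMSI1. Its groups overlapped, with a log2 fold change of 0.0086 (SE 0.08, adjusted p = 0.949, limma). ITCH, which ubiquitinates Notch together with NUMB, was at 9.19 ± 0.54 and 6.90 ± 0.60 FPKM without overlap, or 75.1% of siC, and missed the threshold narrowly (log2 fold change -0.41, SE 0.09, adjusted p = 0.0142). DTX4 was at 3.11 ± 0.19 and 2.27 ± 0.08 FPKM, also without overlap (log2 fold change -0.44, adjusted p = 0.0184). DTX2 was at 2.46 ± 0.30 and 2.82 ± 0.62 FPKM (adjusted p = 0.496), and DTX1 had 1 to 3 reads. SPEN (chr1:15836095-15940456, plus strand), a co-repressor that binds RBPJ in the absence of Notch, measured 5.29, 5.58 and 5.17 FPKM in siC against 5.88, 5.41 and 5.64 in siMSI1. Its groups overlapped (log2 fold change 0.08, SE 0.08, adjusted p = 0.525).

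**Figure D5:**
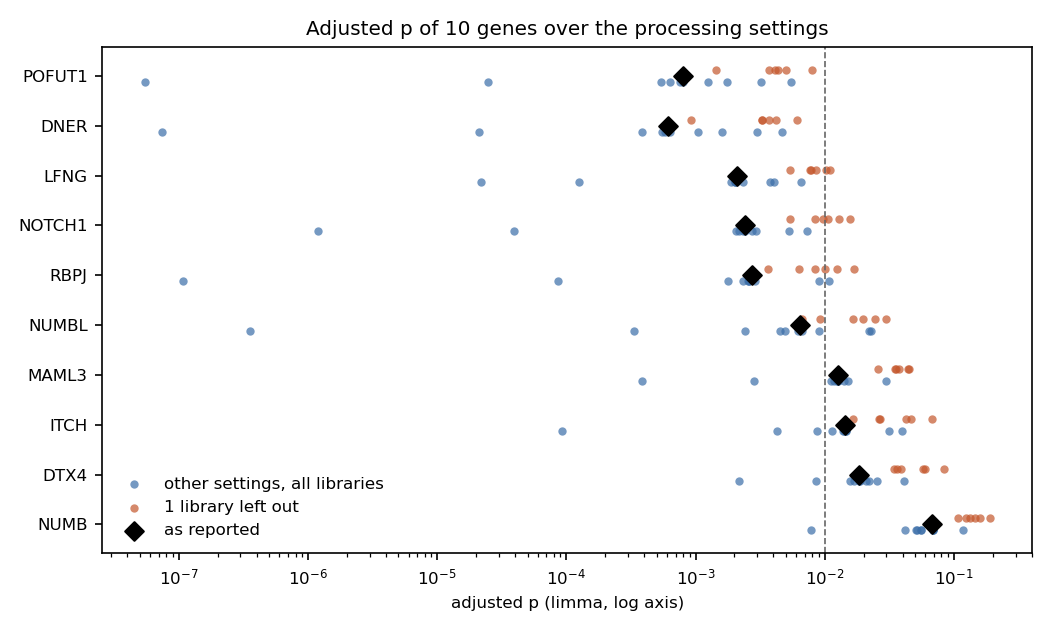
Adjusted p (x axis, log scale) of 10 Notch genes as reported (diamonds), under other settings with all libraries (blue) and with 1 library left out (orange). The dashed line is 0.01: DNER and POFUT1 lie left of it throughout, NOTCH1, RBPJ, LFNG and NUMBL cross it in some settings, and NUMB lies right of it in all but 1.

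Other genes of the pathway were taken from a list of 36 (receptor proteases, ligand ubiquitin ligases, NUMB partners, co-activators and co-repressors of RBPJ). Of these, 32 were tested and 6 passed (18.8%, beside 11% of all genes tested), 4 downregulated and 2 upregulated (5.83% and 5.15% of all genes), with a median log2 fold change of -0.05. FURIN, the protease that processes the receptor on its way to the surface, was at 10.3 ± 0.4 and 6.52 ± 0.56 FPKM (log2 fold change -0.66, adjusted p = 0.00185). EPS15, an endocytic adaptor that NUMB is known to bind, was at 4.92 ± 0.28 and 3.48 ± 0.23 FPKM (log2 fold change -0.49, adjusted p = 0.00895). Of the 5 Groucho-family genes, whose co-repressors HES proteins recruit, 3 passed: TLE1 (12.2 ± 0.4 and 7.80 ± 0.59 FPKM, log2 fold change -0.65, adjusted p = 0.00134) and TLE4 (log2 fold change -0.42, adjusted p = 0.00467) were downregulated, and TLE3 (log2 fold change 0.49, adjusted p = 0.00811) was upregulated. TLE2 (log2 fold change -0.60, adjusted p = 0.179) and TLE5 (log2 fold change -0.01, adjusted p = 0.934) did not pass. KAT2A, an acetyltransferase, was at 21.3 ± 1.5 and 30.3 ± 0.6 FPKM (log2 fold change 0.51, adjusted p = 0.00232). Of this list, 0, 3, 2 and 3 genes were called without siC replicate 1, siC replicate 2, siMSI1 replicate 1 and siMSI1 replicate 2. Beside these stand 3.43%, 5.6%, 5.41% and 5.85% of all genes tested. With all libraries, 13 of the 32 had an unadjusted p of at most 0.05, beside 5765 of the 15069 genes tested, so this share is near that of all genes.

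Genes that Notch and its targets are known to control or oppose in neural cells formed a list of 18, of which 11 were tested and 6 passed (54.5%, beside 11% of all genes tested), with a median log2 fold change of -0.16. An unadjusted p of at most 0.05 (limma) was reached by 9 of the 11, beside 5765 of the 15069 genes tested. This list was chosen with earlier results of these data known, so its counts are not independent evidence. Downregulated were NEUROG2, a proneural factor that HES1 represses (4.30 ± 0.40 and 1.29 ± 0.28 FPKM, log2 fold change -1.67, adjusted p = 0.000571), FABP7, a lipid-binding protein of radial glia and an RBPJ target (36.1 ± 2.1 and 16.6 ± 1.4 FPKM, log2 fold change -1.12, adjusted p = 0.000274), and SOX9, a factor of glial progenitors (log2 fold change -0.61, adjusted p = 0.000976). Upregulated were GFAP, the astrocyte filament (1.63 ± 0.34 and 4.61 ± 0.45 FPKM, log2 fold change 1.46, adjusted p = 0.000905), and the inhibitors of proneural factors ID1 (log2 fold change 0.69, adjusted p = 0.000554) and ID3 (log2 fold change 0.58, adjusted p = 0.00335). ID2 (log2 fold change -0.07, adjusted p = 0.504, limma) and ID4 (log2 fold change 0.10, adjusted p = 0.498, limma) did not pass, and their groups overlapped. The list therefore held genes that moved in opposite directions, and NEUROG1, OLIG1 and OLIG2, with no read in any library, could not be compared.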

How the data were processed

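Poly(A)-enriched RNA of 6 KNS42 libraries was sequenced after strand-specific preparation. Per the labels and methods, the authors trimmed reads with cutadapt 1.14, aligned them to GRCh38 with HISAT2 2.1.0, sorted them with SAMtools 1.5 and counted them per gene with featureCounts 1.5.3. They deposited FPKM values with their own fold changes and p-values from edgeR 3.18.1, which were not used here. Whether the counting used strand is not given in the sources used here. FPKM times gene length and the authors' library size (0.977 to 1.025 times the reads on genes) gave whole reads (tolerance 0.01) for 100% of values.

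limma 3.58.1 (R 4.3.3) was fitted to log2(FPKM + 0.1) of genes with a mean of at least 0.5 FPKM, with trend and robust moderation and no block, at an adjusted p of 0.01, and tested on simulated data. A fold change on this scale understates the change of low genes. Alternatives were other added values, filters, scalings, moderation, a threshold of 0.05, a replicate block, voom on recovered reads and leaving out each library. Genes named with every library were MSI1, the NUMB proteins, called members and the most abundant member of each role; HES4, HES6 and JAG2 were added, and overlapping or copied genes were looked up, after values were seen. Members and lists were chosen with earlier results of these data known. Positions came from GENCODE 44, which held 57392 of 58174 identifiers (98.7%), and promoters from RefSeq. No 2 libraries of a group agreed within counting noise (chi-square per degree of freedom 3.34 to 10.2). Values were handled with Python 3.11.15 and pandas 2.3.3.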

Additional observations from a re-analysis of the deposited data

How the results depend on the processing

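At the same threshold, DNER and POFUT1 passed in all 16 alternatives, LFNG in 14, NOTCH1 in 13, RBPJ in 12 and NUMBL in 10, each with an unchanged direction. Over 558 values of single genes, 498 kept direction and side of the threshold, 25 came to pass it, 15 no longer passed it and 20 changed sign. The number of genes called over the table was 1655 as reported, 3787 at an adjusted p of 0.05, 792 with no filter on low genes, 847 with plain variance moderation, 2684 with voom on recovered reads, and 517 to 1603 with 1 library left out. For the members, 6 calls became 13 at 0.05 (10 lower), 10 with voom (7 lower), 4 with no filter (1 higher), 6 with plain moderation (1 higher, where DLL1 passed and NUMBL did not) and 2 to 7 with 1 library left out (2 to 5 lower, 0 to 2 higher). The 6 calls in the list of other pathway genes became 3 with no filter, 2 with plain moderation and 0 to 4 with 1 library left out. The 6 in the list of neural genes ranged from 5 to 9. The share of all tested genes that was called moved too, from 11% as reported to 25.1% at 0.05, 17.8% with voom and 2.65% with no filter. It was 5.62% with plain moderation and 3.43% to 10.6% with 1 library left out.

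Deviations from the group means correlated at -0.066, 0.078 and 0.083 between libraries of equal replicate number, and at -0.144 to 0.070 between unequal numbers. Not every library correlated best with its own number. With 3 libraries per group, these correlations cannot decide whether equal numbers were paired. With the replicate block, 2250 genes (14.9% of those tested) and 8 members were called, with HES6 and ITCH added. With voom on recovered reads and no block, the added members were DLL1, DTX4, ITCH and MAML3. With voom and the replicate block, 4634 genes (30.8% of those tested), 16 members (11 lower, 5 higher) and 13 other pathway genes were called. NUMB passed there (adjusted p = 0.00784), as in no other alternative. At the same threshold, NOTCH3 and the gamma-secretase genes PSEN2, NCSTN and APH1A also passed only there.

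Sign changes were limited to 5 genes whose fold change was near 0. HES1 moved to 0.0065 with median centring and ranged from -0.0579 to 0.0252 with 1 library left out. MAML2 moved to 0.0110 with median centring, 0.0141 with quantile normalization and 0.0050 with voom and the replicate block, and ranged from -0.0752 to 0.0868. DTX3 moved to -0.0109 with quantile normalization and ranged from -0.0406 to 0.0596. With 1 library left out, DLK2 ranged from -0.2125 to 0.2174 and PSENEN from -0.0705 to 0.0570. Leaving out a library leaves fewer samples, and dropping the filter raised the genes tested to 29846; the cause of the changed calls was not tested. Depth limits HES4, DLL1, DLL3, DLK2, HEY1, NRARP and LFNG, with 5 to 98 reads per library, and the 9 members that were not tested.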
